A study of Mus musculus with 12 samples.

Results

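Kruppel-like factors are DNA-binding proteins that share zinc fingers at their carboxyl end and bind GC-rich or CACCC-like DNA. The members followed here are Klf2, Klf3, Klf4, Klf6, Klf7, Klf9, Klf10, Klf11 and Klf13. They were found by the gene name printed on the array, current symbol or older synonym. This rule uses no measured value, but earlier results of these data were known when the set was chosen. All 9 genes had a probe, 11 probes in all among 39429 on the array, and all 9 passed the filter on dim probes, among 22977 genes tested. The family falls into branches by the proteins its members recruit. Klf2, Klf4, Klf6 and Klf7 work mainly through acetyltransferase coactivators, Klf3 through the corepressor CtBP, and Klf9, Klf10, Klf11 and Klf13 through the corepressor SIN3A. In macrophages Klf2 and Klf4 are best known, Klf2 as a brake on NF-kB-driven inflammatory genes and Klf4 as a factor of monocyte differentiation and alternative activation, while Klf6 has been described as a partner of NF-kB.

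The cells were bone marrow-derived macrophages of mice, grown from marrow for 10 days with GM-CSF at 20 ng/mL. They came from 2 wildtype mice and from 2 mice lacking Commd1, a protein of endosomal sorting that also limits NF-kB. The cells of each mouse were divided into an untreated culture, a culture given LPS at 10 ng/mL for 3 h and a culture given LPS for 24 h. LPS is the bacterial lipid that activates Toll-like receptor 4. This gave 6 groups of 2 arrays, so every mean below has n = 2 and rests on separate mice. The strain, age and sex of the mice, and the cells in which Commd1 was deleted, are not given in the sources used here. Each group is a single-colour Agilent measurement of total RNA. Levels are log2 signals relative to the 75th percentile of the same array, so 1 unit is a doubling, and differences between groups are differences of these log2 levels with the standard error of the model. The number of arrays limits the precision, and a difference was called where its adjusted p was under 0.05 over all genes.

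Commd1 itself lay between 2.70 and 2.89 on the 6 wildtype arrays and between -0.50 and 0.07 on the 6 knockout arrays. Between 58.6% and 72.8% of probes were well above background per array, and no spot was saturated. At each time both knockout arrays had a lower share than both wildtype arrays. The shares were 65.7% and 69.2% against 71.9% and 72.8% untreated. They were 64.0% and 66.4% against 69.1% and 69.7% at 3 h, and 58.6% and 62.7% against 65.0% and 67.9% at 24 h. The part of this in the differences of dim genes was not tested. One knockout array, replicate 1 at 24 h, had 589 outlier spots where the others had 132 to 214. All 8 macrophage markers were well above background on all 12 arrays, as were the 6 of 7 neutrophil markers that the array holds. The neutrophil sum, in multiples of the 75th percentile, was 22.4 to 24.3 in untreated wildtype and 20.9 to 21.4 in untreated knockout cells, 19.1 to 19.6 and 13.3 to 14.6 at 3 h, and 25.3 to 27.4 and 21.9 to 24.8 at 24 h. The median differences of these 6 genes between knockout and wildtype were -1.04, -0.61 and -1.03 at the 3 times, with 1 gene called, lower in untreated knockout cells. The dendritic cell list had 4 of 7 markers on all arrays and Xcr1 on none, and its sum was 5.09 to 5.37 in untreated wildtype, 2.91 to 3.05 in untreated knockout and 1.19 to 1.65 at 24 h. Its genes went both ways, with 2 of 6 tested higher and 2 lower at 24 h in wildtype cells (median 0.55), 3 higher and 2 lower in knockout cells (median 0.78), and 1 higher and 1 lower in untreated knockout against wildtype. The B cell list had 2 of 5 markers on all arrays, and its sum was 0.756 to 0.826 in untreated wildtype and 1.61 to 1.68 in untreated knockout. The T and NK cell list had 2 of 6 markers on all arrays and Cd3g on none, and its sum was 0.740 to 0.801 untreated and 5.32 to 8.33 at 3 h. Of 4 genes tested only Lck, named after its values were seen, was called at 3 h, 4.99 higher in wildtype and 5.58 higher in knockout cells; the other 3, Cd3e among them, were not called. The part of these cells in the results below was not tested, and in RNA from a mixed culture fewer cells of a type and less RNA per cell cannot be told apart. All arrays of a time shared a slide, so LPS time and slide cannot be told apart, and on each slide the wildtype arrays lay at the first positions and the knockout arrays at the last, so genotype and position cannot be told apart either.

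The promoters of 4 members that moved in different ways are shown first, because the sequence before the start site is where family members and other factors are known to act on these genes. Each is the 250 bases before the RefSeq start of transcription in assembly GRCm38.p6, 5′ to 3′ on the strand of the gene, and capitals mark motif matches. The windows are Klf2 at chr8:72318812-72319061 on the plus strand, Klf6 at chr13:5861239-5861488 on the plus strand, Klf9 at chr19:23140976-23141225 on the plus strand and Klf11 at chr12:24651121-24651370 on the plus strand.
Klf2: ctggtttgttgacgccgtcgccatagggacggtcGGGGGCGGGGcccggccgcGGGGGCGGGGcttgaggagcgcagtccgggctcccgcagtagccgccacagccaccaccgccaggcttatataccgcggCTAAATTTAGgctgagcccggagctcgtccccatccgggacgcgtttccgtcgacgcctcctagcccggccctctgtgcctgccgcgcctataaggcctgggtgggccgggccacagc
Klf6: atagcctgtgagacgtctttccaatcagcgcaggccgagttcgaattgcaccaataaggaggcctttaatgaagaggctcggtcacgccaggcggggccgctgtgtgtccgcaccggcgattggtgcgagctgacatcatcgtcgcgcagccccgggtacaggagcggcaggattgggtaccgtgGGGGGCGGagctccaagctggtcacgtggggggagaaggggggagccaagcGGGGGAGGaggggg
Klf9: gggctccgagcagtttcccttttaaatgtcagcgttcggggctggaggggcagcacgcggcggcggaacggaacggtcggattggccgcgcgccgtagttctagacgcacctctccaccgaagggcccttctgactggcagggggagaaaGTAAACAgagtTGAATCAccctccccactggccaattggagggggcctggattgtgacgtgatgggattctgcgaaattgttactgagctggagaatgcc
Klf11: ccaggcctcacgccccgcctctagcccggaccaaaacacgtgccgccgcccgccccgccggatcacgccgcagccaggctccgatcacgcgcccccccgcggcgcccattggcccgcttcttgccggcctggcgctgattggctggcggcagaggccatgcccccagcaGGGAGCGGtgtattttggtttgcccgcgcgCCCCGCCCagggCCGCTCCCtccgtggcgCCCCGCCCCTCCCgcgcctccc

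RefSeq promoter entries were found for 8 of the 9 members. Klf10 was not matched. The consensus CCNCNCCC, which Kruppel-like and SP factors bind, was searched on both strands and was present in 7 of the 8 windows, those of Klf2, Klf3, Klf4, Klf6, Klf7, Klf11 and Klf13, against 45.9% of all 32851 windows in the table. The windows of the members were GC-rich, from 59.2% GC in Klf7 to 78.4% in Klf3, where the median of all windows was 52.4%, and this motif is made of C and G. Klf9 was the exception. Its window held no match to CCNCNCCC but a FOXO match, GTAAACA, in 3.17% of all windows. It also held a match to TGANTCA, the pattern searched for AP-1, in 6.75% of all windows. This match reads TGAATCA, with A at the base that the pattern leaves free. Klf2 was the member with a MEF2 match, present in 2.92% of all windows; it runs from base -118 to base -109 before the start and reads CTAAATTTAG. This is a known element of the Klf2 promoter, through which the kinases MEK5 and ERK5 act. The NF-kB motif, in 7.25% of all windows, and the CRE TGACGTCA, in 1.55%, were not found in the 8 windows. A match is a description of letters and not a measured binding site, and its absence says only that these letters are not in this window.

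The first question was how LPS changed the family. In wildtype cells at 3 h, Klf7, Klf3 and Klf6 rose and Klf2 and Klf11 fell. By 24 h Klf2, Klf3 and Klf7 had moved back towards or past their untreated levels, Klf6 had stayed high, Klf11 had stayed low and Klf9 had fallen. Of the 9 members, 5 were called at 3 h, 3 higher and 2 lower, when 46.6% of all genes were called, 23.2% higher and 23.3% lower. At 24 h 6 were called, 4 higher and 2 lower, beside 50% of all genes, 23.6% higher and 26.4% lower. Between 3 h and 24 h 5 differed, 2 higher at 24 h and 3 lower, beside 52.6%, 25.7% higher and 26.9% lower. In knockout cells 7 were called at 3 h, 3 higher and 4 lower, beside 52.1% of all genes, 26.4% higher and 25.7% lower. At 24 h 4 were called there, 2 higher and 2 lower, beside 57.6%, 26.0% higher and 31.5% lower. Between 3 h and 24 h 6 differed, 3 in each direction, beside 58.9%, 26.3% higher and 32.6% lower. With about every other gene of the array called, these counts are not read as particular to the family. Its median change at 3 h was -0.14 in wildtype cells, beside 0.03 for all genes, and -0.05 in knockout cells, beside 0.06. What differed between members was the direction and the time.

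**Figure D1:**
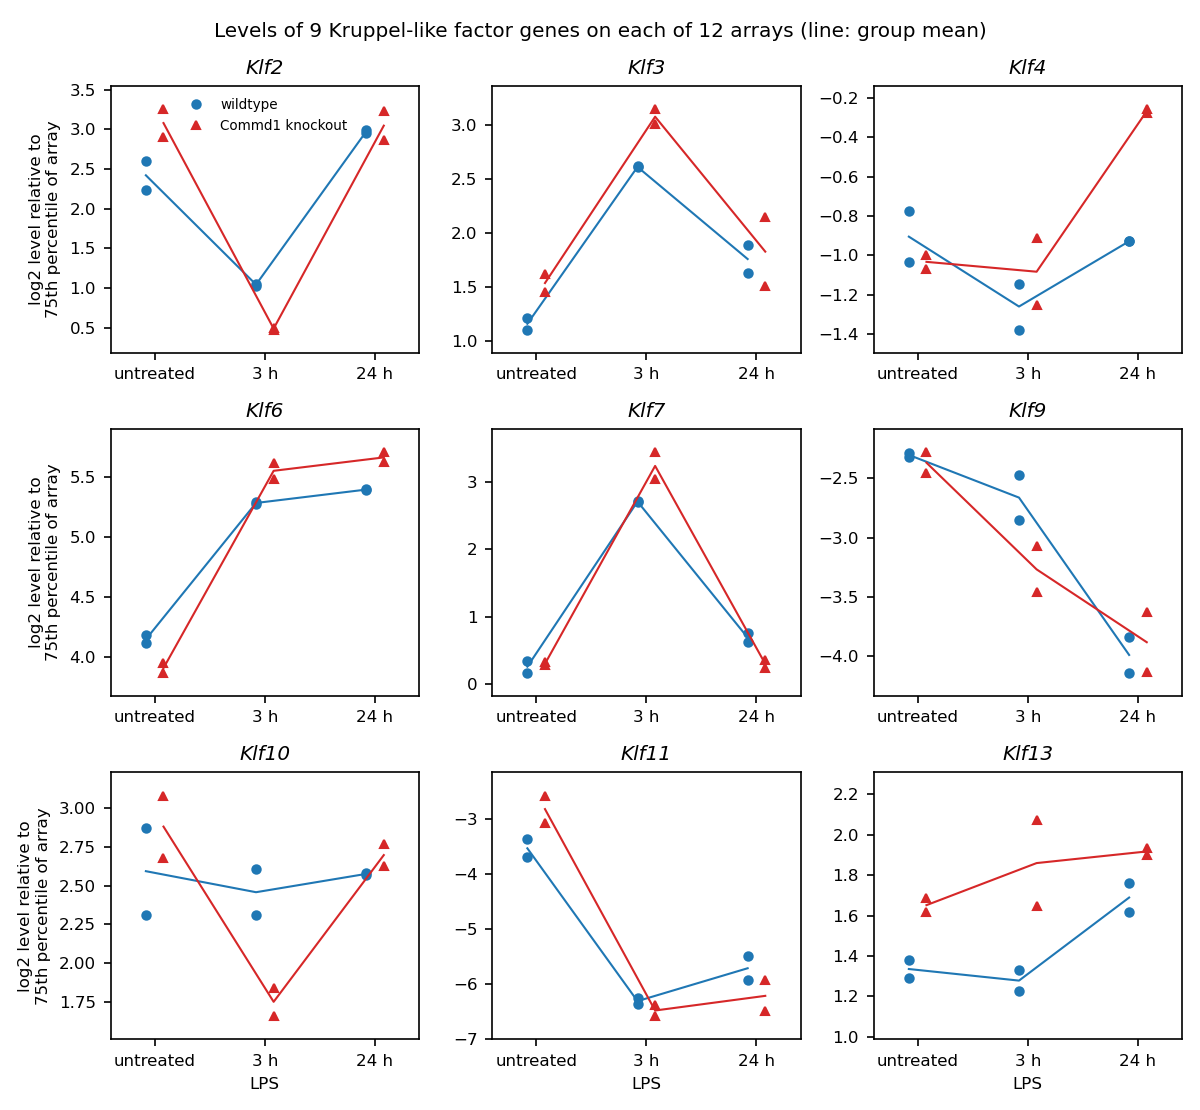
Level of each of the 9 genes on each of the 12 arrays, as log2 signal relative to the 75th percentile of the array, against LPS time; circles are wildtype and triangles Commd1 knockout arrays, and lines join the means of 2 arrays. Klf2 dips at 3 h and returns, Klf3 and Klf7 peak at 3 h, Klf6 rises and stays high, and Klf11 falls from between -3.70 and -2.58 to -5.50 or lower and stays low; each panel has its own vertical scale.

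Klf2 (GRCm38.p6 chr8:72319062-72321654) restrains inflammatory activation of myeloid and endothelial cells. Its levels were 2.61 and 2.24 in untreated wildtype cells, 1.05 and 1.03 at 3 h, and 2.99 and 2.96 at 24 h. In knockout cells they were 3.25 and 2.90 untreated, 0.48 and 0.50 at 3 h, and 2.86 and 3.23 at 24 h. The 4 arrays of 3 h lay below all 8 others, and the knockout arrays of 3 h lay below the wildtype ones. Klf2 fell at 3 h by 1.38 on the log2 scale (SE 0.17, 2.60-fold, adjusted p = 0.000242) in wildtype cells and by 2.59 (SE 0.17, 6.03-fold, adjusted p = 4.26e-06) in knockout cells. It then rose from 3 h to 24 h, 3.81-fold in wildtype cells (adjusted p = 3.51e-05) and 5.89-fold in knockout cells (adjusted p = 5.38e-06). At 24 h it stood 0.55 above the untreated level in wildtype cells (SE 0.17, adjusted p = 0.0260), a call that was lost without untreated replicate 2 (0.37, adjusted p = 0.161) or without either 24 h array (adjusted p = 0.0978 and 0.0849). In knockout cells the difference at 24 h was -0.03 with a 95% interval from -0.42 to 0.36.

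Klf4 (chr4:55527137-55532475), the nearest relative of Klf2 in this set, followed another course. Wildtype levels were -1.03 and -0.78 untreated, -1.38 and -1.14 at 3 h, and -0.93 and -0.93 at 24 h. Knockout levels were -1.07 and -0.998 untreated, -0.91 and -1.25 at 3 h, and -0.26 and -0.28 at 24 h. The knockout arrays of 24 h lay above all others, which overlapped. Klf4 rose in knockout cells at 24 h, by 0.77 over untreated (SE 0.14, 1.70-fold, adjusted p = 0.00169) and by 0.82 over 3 h (adjusted p = 0.00110). In wildtype cells its difference at 3 h was -0.36 (adjusted p = 0.0670), which passed with normexp background correction, with another scaling and over the probes detected on all arrays (adjusted p 0.0222 to 0.0469), and at 24 h -0.02 (95% interval -0.34 to 0.30).

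Genes known to act upstream of Klf2 and Klf4 were a list of 6, all measured. The kinase ERK5 and its activator MEK5 switch on MEF2 factors at the Klf2 and Klf4 promoters, and FOXO1 activates Klf2 in lymphocytes. At 3 h 5 of 6 fell in wildtype cells and 4 of 6 in knockout cells, with none higher, beside 23.3% and 25.7% of all genes lower. The median changes were -0.52 and -0.77, beside 0.03 and 0.06 over all genes. Mapk7, which encodes ERK5, was 2.75 and 2.61 in untreated wildtype cells, 1.09 and 1.09 at 3 h, and 3.11 and 3.12 at 24 h. It fell by 1.59 at 3 h (SE 0.09, adjusted p = 1.97e-06) and rose by 0.43 over untreated at 24 h (adjusted p = 0.00343). In knockout cells Mapk7 fell at 3 h by 1.67 (SE 0.09, adjusted p = 1.09e-06). The MEF2 gene Mef2c fell at 3 h by 1.61 in wildtype (adjusted p = 5.02e-05) and by 1.87 in knockout cells (adjusted p = 1.44e-05), and stayed below untreated at 24 h, by 1.24 and 1.78. Mef2d was 0.60 lower at 3 h in wildtype cells (adjusted p = 0.0280), and its knockout difference of -0.41 did not pass (adjusted p = 0.0932). Foxo1 fell by 0.39 in wildtype (adjusted p = 0.0355) and 0.73 in knockout cells (adjusted p = 0.00135), and Map2k5, which encodes MEK5, by 0.43 (adjusted p = 0.0172) and 0.80 (adjusted p = 0.000554). Mef2a went the other way in time, 2.08 above untreated at 24 h in wildtype cells (SE 0.42, adjusted p = 0.00347), with a knockout difference of 0.83 that did not pass (adjusted p = 0.119). In untreated cells Mef2a was already 1.96 higher in the knockout (SE 0.42, adjusted p = 0.0342), the 1 difference between the genotypes called in this list. Its levels there were 6.35 and 5.41 in knockout and 4.03 and 3.80 in wildtype cells. The knockout mice also lay apart at 3 h, at 6.22 and 4.90. In the alternatives run, as few as 0.0% of all genes were called between untreated genotypes, so this call did not hold in all of them. The 24 h responses of Mef2a differed by -1.25, which did not pass (adjusted p = 0.380).

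**Figure D2:**
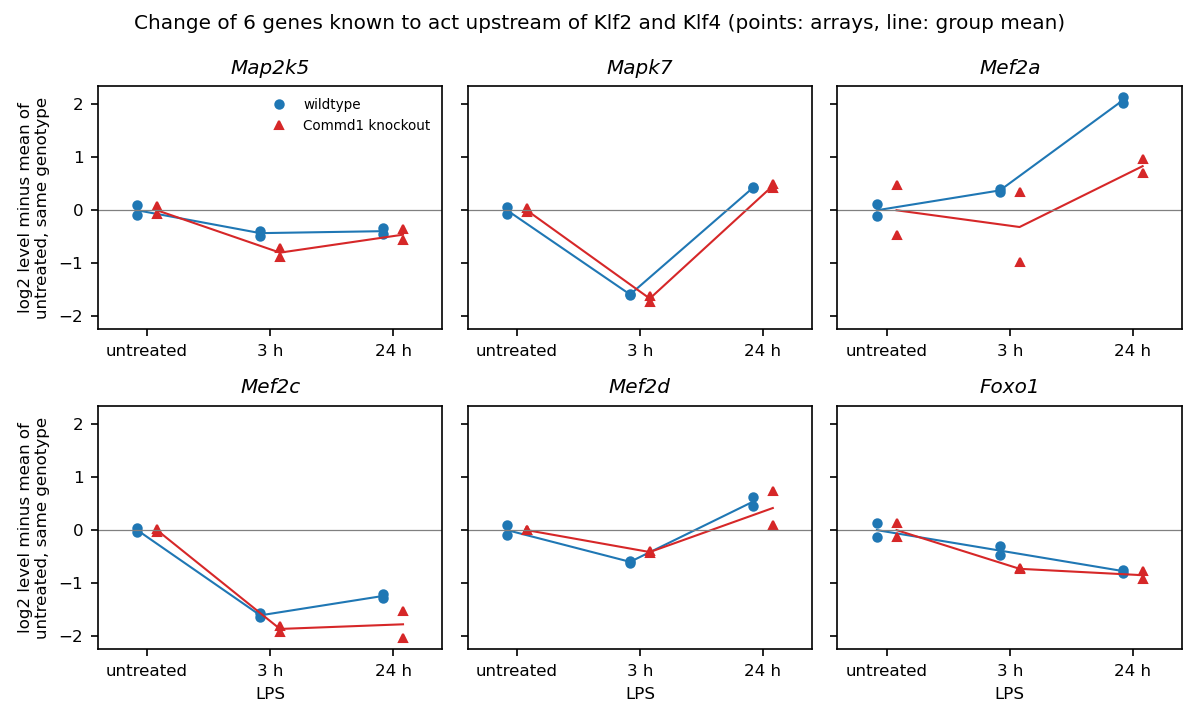
Change of the 6 genes of the upstream list on each array, as log2 level minus the mean of the 2 untreated arrays of the same genotype, against LPS time; circles are wildtype and triangles Commd1 knockout arrays, lines join group means, and all panels share 1 vertical scale. Mapk7 dips at 3 h and is back above untreated at 24 h, Mef2c and Foxo1 stay lower, and Mef2a rises by 24 h in wildtype cells.

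Klf6 and Klf7 are closely related activators, Klf6 an early-response gene and Klf7 a factor first described in neurons. Klf6 (chr13:5861489-5870393) was 4.18 and 4.11 in untreated wildtype cells, 5.29 and 5.27 at 3 h, and 5.40 and 5.39 at 24 h. In knockout cells it was 3.87 and 3.94, then 5.61 and 5.48, then 5.62 and 5.70. Every LPS array lay above every untreated array, and the 24 h change from 3 h was 0.11 in both genotypes (SE 0.08, adjusted p = 0.291 in wildtype and 0.275 in knockout cells). Klf6 rose at 3 h 2.20-fold in wildtype (1.14, SE 0.08, adjusted p = 1.07e-05) and 3.12-fold in knockout cells (1.64, SE 0.08, adjusted p = 9.85e-07), and was 2.37-fold and 3.38-fold above untreated at 24 h (adjusted p = 8.38e-06 and 8.82e-07). With quantile normalization the step from 3 h to 24 h was 0.38 in wildtype and 0.32 in knockout cells and passed (adjusted p = 0.00329 and 0.00662).

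Klf7 (chr1:64029448-64122345) had the largest rise of the 9 members at 3 h in each genotype. Its wildtype levels were 0.16 and 0.34 untreated, 2.71 and 2.72 at 3 h, and 0.62 and 0.75 at 24 h. Its knockout levels were 0.32 and 0.28, then 3.45 and 3.04, then 0.24 and 0.35. The 3 h arrays stood more than 1 unit above all others. Klf7 rose 5.50-fold in wildtype cells (2.46, SE 0.14, adjusted p = 2.25e-06) and 7.72-fold in knockout cells (2.95, SE 0.14, adjusted p = 6.32e-07), and fell from 3 h to 24 h by 2.03 and 2.95. In wildtype cells it remained 0.43 above untreated at 24 h (adjusted p = 0.0276), a call lost without untreated replicate 1 (0.34, adjusted p = 0.147), without either 24 h array (adjusted p = 0.0573 and 0.143) and with scaling on the probes detected on all arrays (adjusted p = 0.0532). In knockout cells the difference was -0.00, with an interval from -0.31 to 0.31.

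Klf3 (chr5:64803521-64832901), the CtBP-binding repressor, rose with Klf7. Its wildtype levels were 1.11 and 1.22 untreated, 2.61 and 2.62 at 3 h, and 1.63 and 1.89 at 24 h. Its knockout levels were 1.46 and 1.62, then 3.15 and 3.01, then 2.15 and 1.51. The 3 h arrays were the highest, and of the knockout arrays of 24 h 1 lay above the untreated arrays and the other between them. Klf3 rose at 3 h 2.74-fold in wildtype (1.45, SE 0.19, adjusted p = 0.000346) and 2.91-fold in knockout cells (1.54, SE 0.19, adjusted p = 0.000186), and fell again by 24 h, by 0.85 (adjusted p = 0.00566) and 1.25 (adjusted p = 0.000590). Its 24 h level over untreated was 0.60 in wildtype cells (SE 0.19, adjusted p = 0.0296), a call lost without untreated replicate 1 (adjusted p = 0.121), without untreated replicate 2 (adjusted p = 0.0712), without 24 h replicate 2 (0.47, adjusted p = 0.161) and with scaling on the probes detected on all arrays (adjusted p = 0.0773). In knockout cells it was 0.29 (adjusted p = 0.225), and 0.61 without knockout 24 h replicate 2 (adjusted p = 0.00841).

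In the SIN3A-binding branch Klf11 fell at 3 h and at 24 h in both genotypes. This gene (chr12:24651371-24662782), induced by TGF-beta in other cells, was -3.38 and -3.70 in untreated wildtype cells, -6.27 and -6.36 at 3 h, and -5.50 and -5.93 at 24 h. In knockout cells it was -2.58 and -3.07 untreated, -6.39 and -6.58 at 3 h, and -6.50 and -5.94 at 24 h. Its signal was 209 to 400 in untreated cells and 17.3 to 38.4 after LPS, and it was well above background on all arrays but knockout replicate 1 at 3 h and at 24 h. Klf11 fell at 3 h by 2.77 in wildtype (SE 0.24, adjusted p = 3.29e-05) and 3.66 in knockout cells (SE 0.24, adjusted p = 4.57e-06), and at 24 h the difference was -2.18 (adjusted p = 0.000154) and -3.39 (adjusted p = 8.91e-06). So close to background the size depends on how background is removed. With normexp correction the falls were 1.41 and 1.90 at 3 h and 0.92 and 1.56 at 24 h, and all 4 still passed. Its rank among the falls of the members therefore depends on the correction: with normexp the 3 h fall of Klf2 in knockout cells was 2.55 and the 24 h change of Klf9 in wildtype cells -1.18, both deeper than those of Klf11. Its wildtype rise of 0.60 from 3 h to 24 h did not pass (adjusted p = 0.0702) but did under normexp, quantile normalization, scaling on detected probes and a fit of those groups alone (adjusted p 0.0131 to 0.0473).

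Klf9 (chr19:23141226-23168129), a glucocorticoid-induced gene, fell later. Its wildtype levels were -2.28 and -2.32 untreated, -2.47 and -2.85 at 3 h, and -3.84 and -4.14 at 24 h. Its knockout levels were -2.28 and -2.45, then -3.07 and -3.46, then -4.14 and -3.63. The arrays of 24 h lay below all others in both genotypes. Klf9 fell by 24 h 3.23-fold in wildtype (-1.69, SE 0.21, adjusted p = 0.000300) and 2.86-fold in knockout cells (-1.52, SE 0.21, adjusted p = 0.000399). At 3 h it fell in knockout cells, by 0.90 (adjusted p = 0.00725), and its wildtype difference of -0.36 did not pass (adjusted p = 0.203). The fall from 3 h to 24 h was 1.33 in wildtype (adjusted p = 0.000958) and 0.62 in knockout cells (adjusted p = 0.0355). The knockout call was lost without 3 h replicate 1 (-0.42, adjusted p = 0.196), without 24 h replicate 1 (-0.36, adjusted p = 0.214), with normexp (-0.27, adjusted p = 0.122), with quantile normalization (adjusted p = 0.0658), without a filter (adjusted p = 0.0600) and in a fit of those groups alone (adjusted p = 0.0988). A second Klf9 probe, to a predicted transcript, was well above background on 1 of 12 arrays and was not used.

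Klf10 (chr15:38291464-38300711), the other TGF-beta early gene of this branch, was 2.87 and 2.31 in untreated wildtype cells, 2.61 and 2.31 at 3 h, and 2.58 and 2.57 at 24 h. These levels overlapped, and the 3 h change of -0.14 had a 95% interval from -0.61 to 0.33. In knockout cells it was 3.08 and 2.68 untreated, 1.66 and 1.84 at 3 h, and 2.63 and 2.77 at 24 h. It fell there at 3 h 2.19-fold (-1.13, SE 0.20, adjusted p = 0.00173) and rose again by 0.95 to 24 h (adjusted p = 0.00404). Whether that fall differed between the genotypes is given with the interaction below.

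Klf13 (chr7:63886351-63938915), known as a regulator of Ccl5 in T cells, moved least. Its wildtype levels were 1.29 and 1.38 untreated, 1.23 and 1.33 at 3 h, and 1.62 and 1.76 at 24 h. Its knockout levels were 1.68 and 1.62, then 2.07 and 1.65, then 1.93 and 1.90. The range of its group means, 0.64, was the smallest of the 9 members. It rose from 3 h to 24 h in wildtype cells by 0.41 (adjusted p = 0.0319), a call that was lost without any 1 of the 4 arrays (adjusted p 0.0597 to 0.160), without a filter (adjusted p = 0.0566) and as the mean of both its probes (0.32, adjusted p = 0.0811). Its 24 h difference from untreated was 0.35 (adjusted p = 0.0578), which passed with the mouse as a block (adjusted p = 0.0399), with normexp correction, over the probes detected on all arrays and in a fit of those groups alone. The second Klf13 probe, to a clone with a retained intron, was well above background on all 12 arrays and passed in none of the 11 comparisons.

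**Figure D3:**
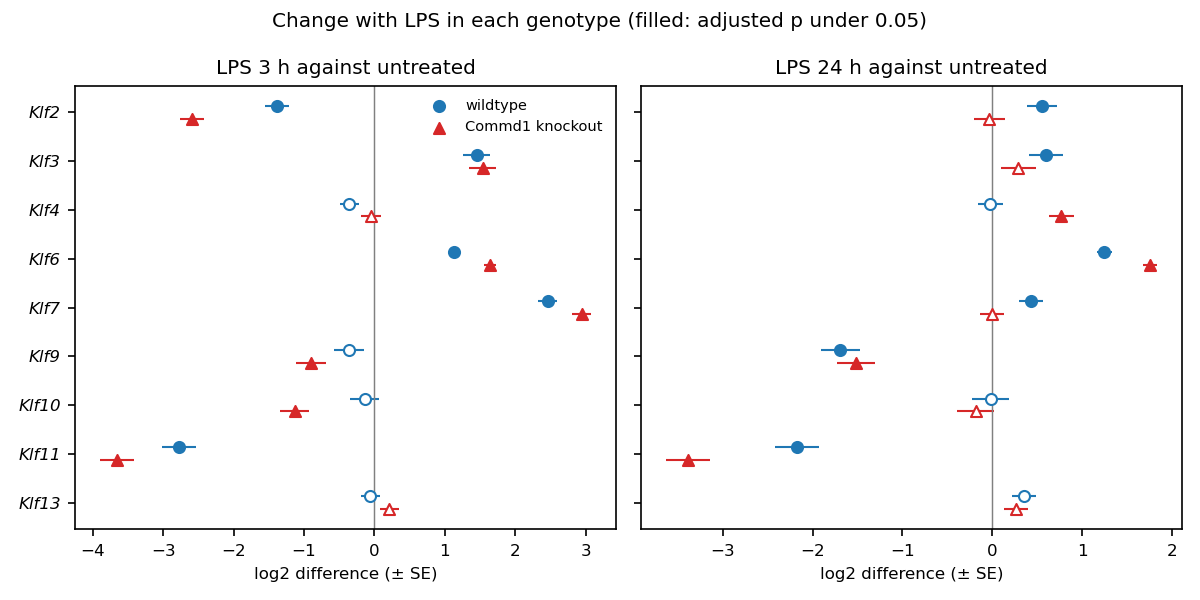
Change with LPS at 3 h (left) and 24 h (right) against untreated cells of the same genotype, as log2 difference with its standard error, for the 9 genes; circles are wildtype, triangles Commd1 knockout, and filled symbols have an adjusted p under 0.05. At 3 h Klf2 and Klf11 lie to the left and Klf3, Klf6 and Klf7 to the right in both genotypes; at 24 h Klf6 stays to the right and Klf9 and Klf11 to the left. The horizontal scales of the panels differ.

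The LPS responses of the genotypes come from separate mice, but at each time both genotypes shared a slide. Agreement between them is therefore not independent of the slide. At 3 h 5 of the 9 members, Klf2, Klf3, Klf6, Klf7 and Klf11, were called in the same direction in both genotypes, beside 40.6% of all genes. At 24 h 3 members, Klf6, Klf9 and Klf11, were called in the same direction in both, beside 44.0%. Between 24 h and 3 h 4 members, Klf2, Klf3, Klf7 and Klf9, were called in the same direction, beside 45.3%.

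The second question was whether loss of Commd1 changed these genes. None of the 9 was called between knockout and wildtype in limma's test at any time, when 6.82% of all genes were called in untreated cells, 1.68% at 3 h and 2.39% at 24 h. At an unadjusted p under 0.05 there were 4 members untreated, 7 at 3 h and 3 at 24 h, beside 24.9%, 24.3% and 21.7% of all genes. At 3 h 8 members had knockout and wildtype arrays that did not overlap, beside 59.5% of all genes; there were 5 in untreated cells, beside 58.8%, and 6 at 24 h, beside 53.9%. With 2 mice per genotype, a difference that did not pass is not shown to be absent, and intervals are given.

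In untreated cells Klf2 was 0.66 higher in the knockout (SE 0.17, 95% interval 0.27 to 1.05, adjusted p = 0.0569). Its knockout levels of 3.25 and 2.90 lay above the wildtype levels of 2.61 and 2.24. It passed with normexp, quantile normalization, scaling on detected probes, the deposited value table and the probes detected on all arrays (adjusted p 0.0190 to 0.0459). Klf11 was 0.71 higher (95% interval 0.15 to 1.27, adjusted p = 0.120), and passed with normexp (adjusted p = 0.0216). Klf13 was 0.32 higher (interval 0.01 to 0.63, adjusted p = 0.193), Klf6 0.24 lower (interval -0.43 to -0.05, adjusted p = 0.122), and Klf7 and Klf9 differed by 0.04 (interval -0.27 to 0.35) and -0.07 (interval -0.56 to 0.42).

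At 3 h the knockout values were lower for Klf10, Klf9 and Klf2 and higher for Klf3, Klf4, Klf6, Klf7 and Klf13, while the sign for Klf11 depended on the background correction (-0.17, and 0.14 with normexp). Klf10 differed by -0.71 (95% interval -1.18 to -0.24, adjusted p = 0.0951), Klf9 by -0.61 (interval -1.10 to -0.12, adjusted p = 0.140) and Klf2 by -0.55 (interval -0.95 to -0.16, adjusted p = 0.106). Klf13 differed by 0.58 (interval 0.27 to 0.89, adjusted p = 0.0640), Klf7 by 0.53 (interval 0.22 to 0.84, adjusted p = 0.0756) and Klf3 by 0.47 (interval 0.03 to 0.90, adjusted p = 0.186). None of these passed. Klf7 and Klf13 passed without knockout 3 h replicate 2 (0.73 and 0.79, adjusted p = 0.0150 and 0.0105), which was the lower of the pair for both genes, and over the probes detected on all arrays (adjusted p = 0.0416 and 0.0334); Klf7, Klf10 and Klf13 passed with normexp (adjusted p 0.0317 to 0.0404).

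At 24 h the difference nearest the threshold was that of Klf4, 0.66 higher in the knockout (SE 0.14, 95% interval 0.34 to 0.98, adjusted p = 0.0523). It passed with the mouse as a random block or the replicate number as a block (adjusted p = 0.04996 and 0.0495), with normexp, with the deposited value table and over the probes detected on all arrays. Klf6 was 0.27 higher (interval 0.08 to 0.46, adjusted p = 0.120), Klf7 was 0.39 lower (interval -0.70 to -0.08, adjusted p = 0.152), and Klf2 differed by 0.07 (interval -0.32 to 0.47).

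**Figure D4:**
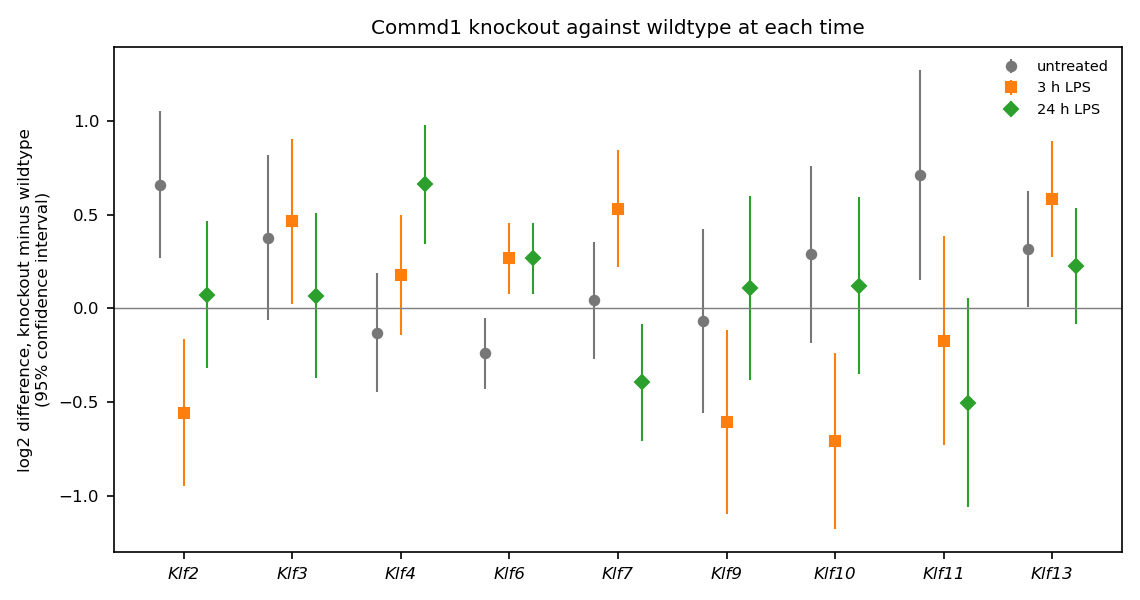
Difference between Commd1 knockout and wildtype cells, as log2 level in knockout minus log2 level in wildtype with the 95% confidence interval, for the 9 genes in untreated cells (grey circles), at 3 h of LPS (orange squares) and at 24 h (green diamonds). Intervals are not corrected for the number of genes; no difference had an adjusted p under 0.05, and Klf2 lies above 0 untreated and below 0 at 3 h.

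The test of the difference between the LPS responses asks whether the knockout cells responded otherwise. No member passed in limma's test at 3 h, when 0.0348% of all genes passed, or at 24 h, when 0.326% passed; at an unadjusted p under 0.05 there were 5 members at 3 h, beside 12.4% of all genes, and 4 at 24 h, beside 14.6%. The 3 h fall of Klf2 was 1.21 deeper in the knockout (SE 0.24, 95% interval of the difference -1.77 to -0.66, adjusted p = 0.117), and this passed with normexp (-1.20, adjusted p = 0.0483). The 3 h response of Klf10 differed by -0.99 (interval -1.66 to -0.33, adjusted p = 0.216), so its fall, called in knockout cells alone, was not shown to differ from the wildtype response. At 24 h the response differed by 0.79 for Klf4 (interval 0.34 to 1.24, adjusted p = 0.130) and by 0.51 for Klf6 (interval 0.24 to 0.78, adjusted p = 0.109). For Klf11, with 1 of 2 knockout arrays of 24 h well above background, the size has no firm value: it was -1.21 (adjusted p = 0.173) and -0.65 with normexp (adjusted p = 0.180).

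Among the other Kruppel-like genes, 4 of 8 were measured, Klf5, Klf8, Klf16 and Klf17, and Klf1, Klf12, Klf14 and Klf15 did not pass the filter. At 3 h 2 of the 4, Klf5 and Klf8, rose in each genotype, with median changes of 0.92 in wildtype and 0.93 in knockout cells. The counts of this and the following lists stand beside the same shares of all genes, at 3 h 23.2% higher and 23.3% lower in wildtype and 26.4% and 25.7% in knockout cells, and beside all-gene medians of 0.03 and 0.06. For 24 h the shares were 23.6% higher and 26.4% lower in wildtype and 26.0% and 31.5% in knockout cells. Klf8, like Klf3 a CtBP-binding factor, was -1.63 and -1.75 in untreated wildtype cells and 0.47 and 0.72 at 3 h, a rise of 2.29 (SE 0.11, adjusted p = 1.03e-06), and rose by 2.91 in knockout cells (SE 0.11, adjusted p = 2.37e-07). At 24 h Klf8 was back at -1.99 and -1.92 in wildtype cells but stood at -1.29 and -1.16 in knockout cells, a difference of 0.73 (SE 0.11, adjusted p = 0.0245), and its 24 h response differed between the genotypes by 1.02 (SE 0.16, adjusted p = 0.0494). Klf5, an activator of proliferation, was near background, and of its untreated arrays only 1 wildtype array and no knockout array was well above it. It was -5.38 and -5.35 at 3 h in wildtype cells and -5.62 and -5.13 in knockout cells, where it was at least 2.85-fold above untreated (adjusted p = 0.000665). Klf5 passed the filter only through its 3 h arrays, where it was highest. The filter thus favoured its rise, its call and its place in the count above. Klf16, of the SIN3A branch, fell by 24 h in wildtype (-0.31, adjusted p = 0.0178) and in knockout cells (-0.74, adjusted p = 0.000144) and was 0.49 lower in the knockout at 24 h (adjusted p = 0.0366). In the alternatives run, as few as 0.0% of all genes were called for the 24 h genotype difference and for that of the 24 h response. The genotype calls of Klf8 and Klf16 therefore did not hold in all of them. Klf17 passed in no comparison with untreated cells.

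The family is defined by its shared zinc fingers, and a pair of probes shows how alike the coding sequence is there. The probes of Klf13 and Klf5 both lie in the coding sequence of the conserved fingers, and over the 40 bases where they align 29 are identical, 72.5%. Whether either probe binds the RNA of the other gene was not tested. They are shown 5′ to 3′ with the identical bases in capitals; in the mm9 coordinates of the array the Klf13 probe is at chr7:71082854-71082913, and the Klf5 probe spans an exon junction within chr14:99702656-99712388.
Klf13 probe: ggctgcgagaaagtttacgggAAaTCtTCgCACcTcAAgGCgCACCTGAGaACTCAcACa
Klf5 probe: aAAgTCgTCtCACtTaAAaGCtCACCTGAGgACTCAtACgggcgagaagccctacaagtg

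The SP factors bind the same GC-rich boxes through similar fingers. Of 9 genes 7 were measured, and Sp5 and Sp9 did not pass the filter. At 3 h 1 rose and 2 fell in each genotype (medians 0.05 and -0.31). At 3 h Sp3 fell by 1.49 in wildtype (SE 0.10, adjusted p = 8.39e-06) and fell by 1.26 in knockout cells (SE 0.10, adjusted p = 1.58e-05), and at 24 h it differed from untreated by -0.13 and 0.03, which did not pass. Sp1, the founding member, fell by 0.28 (adjusted p = 0.0488) and 0.31 (adjusted p = 0.0277) at 3 h. The osteoblast factor Sp7 rose by 0.51 (adjusted p = 0.00115) and 0.44 (adjusted p = 0.00210). Its levels, -5.91 to -5.19, were near those of Klf11 after LPS, where the size of a change depended on the background correction.

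Proteins that carry or limit the action of the family were a list of 12 cofactors, all measured. At 3 h 2 rose and 3 fell in wildtype cells and 6 rose and 3 fell in knockout cells (medians 0.10 and 0.27); at 24 h 3 rose and 4 fell and 4 rose and 4 fell. Wwp1, a ubiquitin ligase that targets Klf2 and Klf5, was 1.14 and 0.89 in untreated wildtype cells, 0.01 and -0.01 at 3 h, and -0.45 and -0.43 at 24 h. It fell at 24 h by 1.45 in wildtype (SE 0.10, adjusted p = 1.27e-05) and 1.77 in knockout cells (SE 0.10, adjusted p = 2.86e-06). The SIN3A-associated deacetylase gene Hdac1 rose by 0.73 at 3 h in wildtype (adjusted p = 0.000768) and 0.91 in knockout cells (adjusted p = 0.000168), and its relative Hdac2 fell at 24 h by 0.68 (adjusted p = 0.00215) and 0.77 (adjusted p = 0.000926). The acetyltransferase genes Kat2b and Crebbp rose at 24 h in both genotypes. In wildtype cells the rises were 0.71 (adjusted p = 0.000592) and 0.68 (adjusted p = 0.00156). In knockout cells they were 0.97 (adjusted p = 7.20e-05) and 0.63 (adjusted p = 0.00197).

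Glucocorticoid-responsive genes, the group to which Klf9 belongs, were a list of 7, all measured. At 3 h 2 rose and 3 fell in wildtype cells, and 3 rose and 3 fell in knockout cells (medians 0.22 and -0.28). Per1, a clock gene, was 2.38 and 1.89 in untreated wildtype cells, -1.87 and -2.10 at 3 h, and 2.33 and 2.33 at 24 h. It fell by 4.12 at 3 h (SE 0.17, adjusted p = 4.70e-07). Tsc22d3, which encodes the mediator GILZ, fell by 3.65 at 3 h in wildtype (SE 0.17, adjusted p = 9.58e-07) and fell by 4.55 in knockout cells (SE 0.17, adjusted p = 2.44e-07), and at 24 h its differences from untreated were 0.13 and -0.19, which did not pass. Zfp36l2, an RNA-decay factor, fell by 2.39 (adjusted p = 1.18e-05) and 2.89 (adjusted p = 2.80e-06). Fkbp5, a chaperone of the glucocorticoid receptor, was lower at 24 h than at 3 h, by -0.44 in wildtype (adjusted p = 0.0208) and -0.67 in knockout cells (adjusted p = 0.00230). Dusp1, a phosphatase also induced by LPS itself, rose at 3 h by 2.28 in wildtype (adjusted p = 8.52e-07) and 3.41 in knockout cells (adjusted p = 1.04e-07).

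The TGF-beta early genes, with which Klf10 and Klf11 are usually grouped, were a list of 11, all measured. At 3 h 5 rose and 2 fell in wildtype cells and 4 rose and 2 fell in knockout cells (medians 0.15 and 0.14). In wildtype cells at 3 h Skil, an inhibitor of SMAD proteins, rose by 3.90 (SE 0.20, adjusted p = 1.64e-06), and Smad3 fell by 0.71 (SE 0.15, adjusted p = 0.00433). Klf11 fell at the same time.

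Genes reported elsewhere as targets of Kruppel-like factors were a list of 14, all measured. At 3 h 7 rose and 4 fell in wildtype cells and 8 rose and 3 fell in knockout cells (medians 0.24 and 1.21); at 24 h the counts were 5 and 5 and 7 and 5. Thbd encodes thrombomodulin, which Klf2 activates in endothelium. It was 0.60 and 0.33 in untreated wildtype cells, -4.09 and -4.16 at 3 h, and -0.80 and -0.84 at 24 h. It fell by 4.59 at 3 h (SE 0.14, adjusted p = 9.88e-08). In knockout cells it fell at 3 h by 4.26 (SE 0.14, adjusted p = 1.25e-07). Ccl5, a chemokine, rose at 3 h by 8.33 (SE 0.21, adjusted p = 5.09e-08) in wildtype and 6.90 in knockout cells (adjusted p = 1.08e-07), and was 1.65 higher in untreated knockout cells (adjusted p = 0.00920). That genotype call did not hold in all alternatives, where as few as 0.0% of all genes were called between untreated genotypes. Cdkn1a, a cell-cycle inhibitor, rose at 3 h by 2.68 (adjusted p = 2.09e-06) and 2.46 (adjusted p = 2.41e-06), and Hif1a, which Klf2 is reported to restrain, by 2.27 (adjusted p = 8.69e-05) and 2.20 (adjusted p = 7.62e-05).

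Likeness was measured for the 3 members with the widest range of group means, as Pearson's r of the log2 level over the 12 arrays, among genes whose own range lay within a factor of 2 of the member's. The points share the arrays and, by group, the mouse and the slide, so r is a description. Closest to Klf11, with a range of 3.66, were Zyg11b (r = 0.988) and Fam120b (r = 0.987). Closest to Klf7, with a range of 2.99, were Ptpn12 (r = 0.994), a phosphatase gene, and Maff (r = 0.993), a small MAF transcription factor that was -2.26 and -2.13 in untreated wildtype cells and 2.36 and 2.34 at 3 h. Closest to Klf2, with a range of 2.59, were Zfp788 (r = 0.993), Dcp1b (r = 0.992), which acts in mRNA decapping, and Zfp426 (r = 0.991). The third gene for Klf11, 6330531I01Rik (r = 0.987), and that for Klf7 (r = 0.993), an Ensembl transcript, carry no current symbol here.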

How the data were processed

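Single-colour Agilent arrays of 12 samples were scanned by the authors and read with Agilent Feature Extraction 10.7.3.1, per the submitters' processing notes. The deposited scanner files hold intensity values (the processed signal, background-subtracted per the file headers), with flags for spots well above background. The authors' deposited log2 value table equals log2 of that signal minus a constant per array within 0.01 for 99.42% to 99.94% of detected probes; column medians were -4.51 to -4.30, and its centring rule is not given in the sources used here. It served as an alternative.

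Here, log2 of the signal minus the 75th percentile of each array was used, without control spots and outlier spots. A probe was kept where the 2 arrays of any group both rated it well above background; of several kept probes of a gene, the brightest on average was used. limma 3.58.1 in R 4.3.3 fitted 6 group means over 12 arrays. The 11 comparisons were adjusted by Benjamini-Hochberg over all genes, and the fit was tested on simulated data. Probe names were updated through RefSeq's GRCm38.p6 table for 31000 of 39429 probes by accession, symbol or synonym.

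Replicate numbers pair samples within a genotype, because the labels give the same mouse at each time; residuals correlated at 0.123 to 0.355. Between genotypes they are different mice.

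The members and lists were chosen with earlier results of these data known. From each list at most 6 genes are named, those with the largest changes, plus genes chosen by likeness over the 12 arrays; some genes of the lists enter the counts but are not reported here by name. Alternatives changed the background correction, scaling, normalization, value table, filter, probe rule, block, arrays fitted and each array left out in turn.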

Additional observations from a re-analysis of the deposited data

How the results depend on the processing

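No called result of a single member changed direction in the alternatives run, and 28 of 33 called results kept their call in all that could be fitted. The other 5, Klf2, Klf3 and Klf7 at 24 h in wildtype cells, Klf13 between 3 h and 24 h in wildtype cells and Klf9 between 3 h and 24 h in knockout cells, are given with their values above. Klf11 has no value over the probes detected on all arrays. The number of members called for wildtype cells at 24 h, 6, was 3 to 4 without 1 array (3 without wildtype 24 h replicate 2). Between the genotypes, where 0 members were called, 2 were called untreated with normexp and 1 each with scaling on detected probes, quantile normalization, the deposited table and the probes detected on all arrays. At 3 h the number was 3 with normexp, 2 over the probes detected on all arrays and 0 to 2 without 1 array; the genotype difference of the 3 h response gave 1 with normexp. At 24 h 1 member, Klf4, was called with normexp, the deposited table, the probes detected on all arrays, the mouse as a random replicate block and the replicate number as a fixed replicate block. The blocks changed no other call but that of Klf13 at 24 h in wildtype cells; replicate numbers of different genotypes are different mice and pair nothing (residual correlations 0.265, 0.087 and -0.016). The share of all genes called moved more: for wildtype cells at 3 h from 46.6% to between 31.0% and 54.5%, for untreated knockout against wildtype from 6.82% to between 0.0% and 12.6%, at 3 h from 1.68% to between 0.0% and 12.7%, and at 24 h from 2.39% to between 0.0% and 5.32%. normexp moved the median of all genes by up to 0.29 and scaling on detected probes by up to -0.15; the share of called genes that were higher went from 47.2% to 64.5% for wildtype cells at 24 h with normexp and from 49.9% to 39.0% at 3 h with scaling on detected probes. Among the members, signal over background limits Klf11 and Klf9 most. Of the other genes named, Klf5, Klf17 and Sp7 were dim too. The causes were not tested.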
